A study of Mus musculus with 58 samples.

Results

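The Hoxb genes described here are Hoxb1 to Hoxb9, the 9 neighbouring homeobox genes at the 3′ side of the mouse Hoxb cluster. They were chosen by name, and their symbols matched 9 of the 20177 protein-coding genes counted in every library. The 58 libraries came from E14 mouse embryonic stem (mES) cells of the 129/Ola strain. Each line was derived from an edited clone and expressed a tagged subunit of the SET1/COMPASS complexes, which methylate lysine 4 of histone H3. In DPY30–mAID cells the DPY30 subunit carries a degron tag that auxin triggers through the OsTIR1 transgene, and in RBBP5–FKBP cells the RBBP5 subunit is degraded with dTAG-13. The third line, DPY30–mAID Kdm5 double knockout (dKO), also lacks the H3K4 demethylases Kdm5a and Kdm5b.

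In the Quant-seq experiment, DPY30–mAID cells received 1 µM retinoic acid (RA) without LIF, together with DMSO or auxin. Quant-seq reads the 3′ ends of transcripts, so that a read count follows transcript number and was not divided by gene length. DMSO libraries were available at 0 h, 8 h and days 1, 2, 4 and 6, and auxin libraries at 8 h and days 1, 2, 4 and 6, with 2 libraries per group. A group of auxin-treated cells at 0 h was not analysed here, and when auxin was added relative to RA is not given in the sources used here. The 2 DMSO libraries of day 6 held identical values and were counted as 1, which left 21 Quant-seq libraries and no test at that point. The SLAM-seq experiment used the 3 lines without RA, labelled for 60 min with 100 µM 4-thiouridine at 0, 2, 8 and 24 h of ligand, with 4 and 48 h added for the dKO line. It comprised 3 libraries per group for DPY30–mAID and RBBP5–FKBP and 2 per group for the dKO line. The study describes its SLAM-seq replicates as biological. Nothing in the labels says that replicates were separate cultures, so that the p-values measure the spread between these libraries.

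Hox genes encode homeodomain transcription factors that specify position along the head-to-tail axis of the embryo. Within a cluster the genes lie in the order in which they are used, with the 3′ genes active first and most anteriorly. In mES cells the clusters are silent and carry both Polycomb-deposited H3K27me3 and H3K4me3. RA, a natural ligand in the hindbrain and trunk, opens the 3′ genes through retinoic acid receptors, which bind direct repeats of the half-site AGGTCA. The DPY30 experiment asks whether genes such as these can be switched on when H3K4me3 has been removed.

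All members lay on the plus strand of chromosome 11 (GRCm38), with Hoxb1 at the 3′ end of the cluster (96365752 to 96368256, GENCODE vM21) and Hoxb9 at the other end (96271457 to 96276595). The start of Hoxb9 lay 94.3 kb from that of Hoxb1. Each member was counted over 1 interval of its 3′ UTR, from 383 bases in Hoxb2 to 1839 bases in Hoxb9. The Hoxb4 interval, for example, covered 96320329 to 96321638. None of these intervals overlapped that of another counted gene. Antisense genes overlap the intervals of Hoxb2 and Hoxb3 (Hoxb3os) and of Hoxb5 and Hoxb6 (Hoxb5os). The strand setting of the counting is not given in the sources used here, so reads of these 4 members and their antisense partners cannot be told apart. Reads that mapped to more than 1 place made up at most 0.384% of a member's reads, in Hoxb1.

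RefSeq promoter windows (GRCm38.p6) matched 3 of the 9 members, Hoxb1, Hoxb4 and Hoxb8. The 250 bases before each RefSeq start are shown for these 3, as no window was available for the other members. The Hoxb1 window ends a few bases past the GENCODE start given above. Whether the motifs bear on the response to RA or auxin was not tested. Capitals mark TATAAA, the receptor half-site AGGTCA and the Hox and Pbx motif TGATNNAT, on either strand.
Hoxb1, chr11:96365508-96365757, plus strand: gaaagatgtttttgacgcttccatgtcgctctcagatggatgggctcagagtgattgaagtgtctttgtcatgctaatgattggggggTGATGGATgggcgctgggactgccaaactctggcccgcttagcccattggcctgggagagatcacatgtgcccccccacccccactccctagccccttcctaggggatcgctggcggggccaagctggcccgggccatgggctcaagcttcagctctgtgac
Hoxb4, chr11:96318017-96318266, plus strand: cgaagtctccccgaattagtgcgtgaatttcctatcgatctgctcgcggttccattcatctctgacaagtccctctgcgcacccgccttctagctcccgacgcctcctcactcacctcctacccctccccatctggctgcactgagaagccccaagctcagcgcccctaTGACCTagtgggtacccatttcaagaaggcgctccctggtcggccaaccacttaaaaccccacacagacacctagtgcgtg
Hoxb8, chr11:96281655-96281904, plus strand: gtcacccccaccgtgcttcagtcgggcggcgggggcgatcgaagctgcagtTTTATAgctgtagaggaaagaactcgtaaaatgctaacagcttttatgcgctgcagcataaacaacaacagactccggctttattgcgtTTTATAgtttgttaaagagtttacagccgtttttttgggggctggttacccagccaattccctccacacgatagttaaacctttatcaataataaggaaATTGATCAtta
The Hoxb1 window held TGATNNAT once, beginning 162 bases before the start on the plus strand. This motif occurred in 7.68% of all 32851 windows cut to the same length. The Hoxb4 window held 1 AGGTCA, on the minus strand 81 bases before the start, a match found in 14% of windows. The Hoxb8 window held TATAAA at 199 and 110 bases before the start (12.4% of windows) and TGATNNAT at 11 bases, all on the minus strand. None of the 3 windows held a direct repeat of AGGTCA spaced by 2 or by 5 bases, each of which was present in 0.00913% of windows. CpG dinucleotides numbered 7 in Hoxb1, 14 in Hoxb4 and 12 in Hoxb8, with a median of 6 over all windows.

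Quant-seq libraries held 1264241 to 2543632 reads in genes. Levels are given as CPM, the counts scaled to library size, with TMM, a normalisation that sets the typical gene equal between libraries. A change shared by most genes is thereby removed, so every difference between arms or times is relative to the typical gene. The spike-in RNA that the study added to its libraries was not used here, so absolute levels were not measured. All 10 pluripotency markers were detected at 0 h, where they summed to 7909.2 and 8187.8 CPM. The 12 neural markers summed to 157.3 and 161.4 CPM at 0 h, with 6 of them, among them Dcx, Olig2 and Lhx1, at 0 in both libraries. The 3′ reads of Kdm5a and Kdm5b, the genes targeted in the dKO line, were lower there at 0 h (26.0 to 27.5 and 108.7 to 151.3 CPM) than in DPY30–mAID (74.5 to 105.8 and 905.7 to 945.9 CPM). In such bulk libraries, fewer cells using a gene and less RNA per cell cannot be told apart. The DPY30 degron acts on protein, so the Dpy30 read count does not check the auxin label.

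Before RA, 8 of the 9 members were close to silent. Hoxb3, Hoxb5, Hoxb6 and Hoxb8 had no read in either 0 h library. Together these libraries held 4776087 reads, so that a count of 0 allows a level of up to 0.628 CPM. Hoxb1 and Hoxb2 had 1 read each, Hoxb4 had 2 and Hoxb7 had 3 over both libraries. Hoxb9, the gene at the far 5′ end of the 9, which patterns the thoracic skeleton, was the exception. It stood at 5.09 and 6.30 CPM, from 12 and 13 reads.

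Under RA in DMSO, the members rose within 8 h in the middle of the cluster and at its 3′ end. A call required an adjusted p under 0.05 together with a change of more than 1 on the log2 scale. At 8 h 6 of the 9 members were called higher than at 0 h, where 3.5% of the 11415 tested genes were. These were Hoxb1 to Hoxb5 and Hoxb7. By day 1 all 9 were called, where 16% of genes were, and all 9 remained so at day 2 (16.2% of genes) and day 4 (19.9% of genes). Hoxb9 passed the filter on low counts at 0 h itself. The other 8 members passed it through their RA groups alone, so that a rise over the near-silent 0 h libraries was partly fixed by that filter. Hoxb6 and Hoxb8 reached its mean of 10 reads in DMSO groups alone, as no auxin group of either did, so their lower levels in auxin were partly fixed by it as well.

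Hoxb4, whose forced expression expands blood stem cells, was the highest member at 8 h. Its libraries stood at 24.7 and 31.1 CPM at 8 h, 47.7 and 68.7 at day 1, 76.3 and 88.5 at day 2, 56.7 and 58.5 at day 4 and 43.8 in the day 6 library. All RA libraries lay above both 0 h libraries, which were at 0 and 0.969. The ratio of pooled reads at 8 h to 0 h was 62.4, with an exact 95% counting interval of 16.8 to 521.6 because 0 h held 2 reads. Such intervals cover counting error only, as the reads carry no molecular identifiers.

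Hoxb5, which acts in the enteric nervous system and marks long-term blood stem cells, followed Hoxb4. Its libraries stood at 16.5 and 19.1 CPM at 8 h, 23.3 and 25.3 at day 1, 48.8 and 62.0 at day 2, 22.2 and 23.6 at day 4 and 9.91 at day 6. The level at 8 h was at least 26.4-fold higher than at 0 h, taking 3 reads over the 2 empty 0 h libraries as the floor. At day 2 it was at least 82.1-fold higher. The 8 h libraries of Hoxb7, a gene of the developing kidney duct, were at 11.5 and 11.8, against 0.485 and 0.848 at 0 h, and its pooled ratio was 17.1 (5.48 to 86.1).

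Hoxb1, the hindbrain gene at the 3′ end and a direct target of RA receptors, began low and became the most abundant member. In DMSO it stood at 5.26 and 8.81 CPM at 8 h, 27.8 and 30.5 at day 1, 209 and 213 at day 2, 115 and 116 at day 4 and 90.1 at day 6. Libraries of neighbouring times did not overlap. The step from day 1 to day 2 was a log2 fold change of 2.86 ± 0.15 (SE, edgeR adjusted p = 5.19e-14). Hoxb2, which patterns the hindbrain next to Hoxb1, also rose up to day 2 and stood lower afterwards. It overlapped Hoxb1 at 8 h and lay below it from day 1 on. It stood at 4.70 and 7.17 at 8 h, 21.3 and 26.7 at day 1, 68.8 and 86.7 at day 2, 40.4 and 47.1 at day 4 and 24.0 at day 6. Its rise from day 1 to day 2 was 1.69 ± 0.30 (edgeR adjusted p = 0.000186).

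Hoxb3, a gene of the posterior hindbrain and pharyngeal arches, rose mainly between 8 h (3.53 and 7.17) and day 1 (22.4 and 34.1). That step was 2.35 ± 0.37 on the log2 scale (edgeR adjusted p = 1.81e-05). Its day 2 libraries were at 34.6 and 42.6. Hoxb9 changed little by 8 h, with libraries at 5.29 and 8.13 and a pooled ratio to 0 h of 1.21 (0.673 to 2.19). It then stood at 23.6 and 28.4 at day 1 and 40 and 52.4 at day 2, where the ratio was 8.21 (5.39 to 13.0). Its DMSO libraries from day 1 to day 6 all lay above both 0 h libraries. The 1 library of day 6 stood at 9.09, and its ratio to 0 h of 1.61 (0.864 to 2.97) does not exclude an unchanged level.

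Hoxb6 and Hoxb8 were the least abundant members. Hoxb8, a regulator of myeloid progenitors, had 0 and 2 reads at 8 h, 7 and 4 at day 1 and 18 and 31 at day 2, when its level was 9.35 and 14.9 CPM. Hoxb6, used in the lateral plate mesoderm, differed widely between replicate libraries. At day 2 it had 55 and 12 reads, at day 4 25 and 6, and in auxin at day 6 13 and 1. With a ratio of 3 between replicates taken as the mark, and at least 1 read in each, 6 pairs of Hoxb6 libraries differed as much. Of the other members 2 pairs did, Hoxb2 in auxin at day 6 (45 and 6 reads) and Hoxb7 in auxin at day 1 (8 and 25 reads).

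Every member had its highest DMSO group mean at day 2, and none at day 4 or 6. For Hoxb6 this rested on 1 library at 28.6 CPM, as the other, at 5.77, lay below both day 1 libraries (7.47 and 10.2). From day 2 to day 4, 3 of 9 members were called lower (4.7% of genes were): Hoxb5 (log2 fold change -1.27 ± 0.22, edgeR adjusted p = 7.45e-05), Hoxb7 (-1.45 ± 0.33, edgeR adjusted p = 0.00121) and Hoxb8 (-1.30 ± 0.44, edgeR adjusted p = 0.0247). For the other 6 the estimates lay between -0.52 and -1.29. Of these, Hoxb1 to Hoxb4 and Hoxb9 passed the adjusted p and missed the limit of 1. With no filter on counts, 5 members were called. The median over members was -0.99, and 0.06 over all genes.

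**Figure D1:**
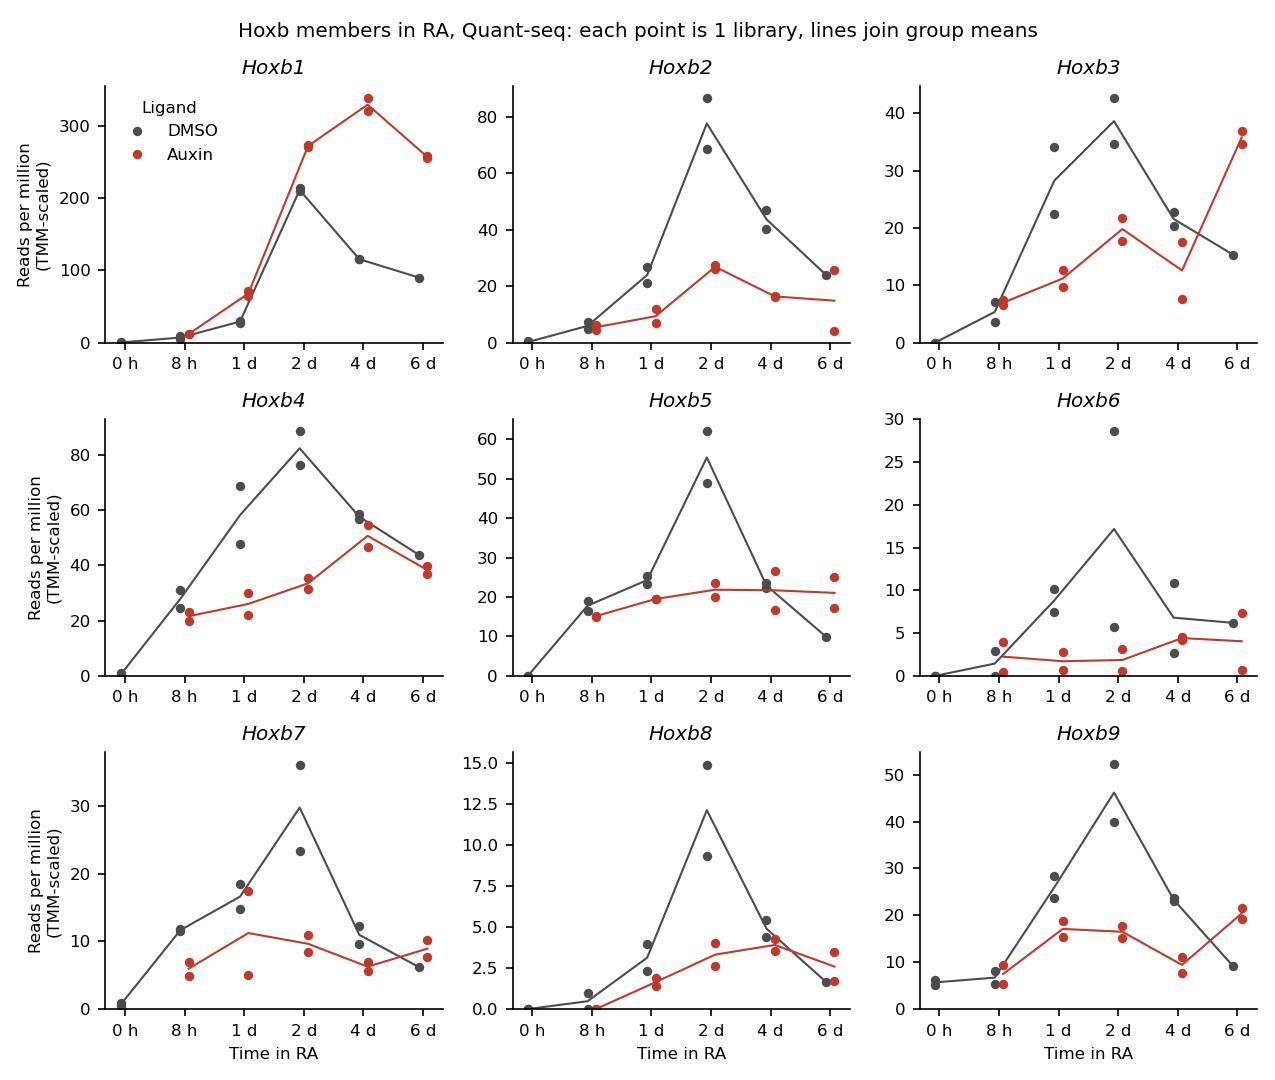
TMM-scaled CPM of each member (vertical axes, each from 0) against time in RA, in DMSO (grey) and auxin (red); points are libraries and lines join group means, with 1 library for DMSO at day 6. In DMSO all 9 members had their highest group mean at day 2, which for Hoxb6 rested on 1 library. In auxin Hoxb1 reached 321 and 338 at day 4, and the day 2 peak of the others was low or missing.

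The times were compared through the share of its own highest group mean that each member had reached. At 8 h in DMSO, Hoxb7, Hoxb4 and Hoxb5 had reached 39.1%, 33.8% and 32.1%. Hoxb9 and Hoxb3 stood at 14.5% and 13.9%, where Hoxb9 was already present at 0 h and was not called at 8 h, and Hoxb6, Hoxb2, Hoxb8 and Hoxb1 at 8.36%, 7.63%, 3.94% and 3.33%. The 3′ end gene was therefore called at the first time point while at a small share of its later level, not separable from that of Hoxb8, which rested on 0 and 2 reads. Across the 9 genes, position in the cluster and this share had a Spearman rho of 0.35 in DMSO and 0.233 in auxin, which is a description over genes measured in the same libraries. Neighbours in the ranking such as Hoxb4 and Hoxb5 differed by less than the spread between their replicates. At day 1 the shares ran from 13.8% in Hoxb1 to 73.2% in Hoxb3.

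**Figure D2:**
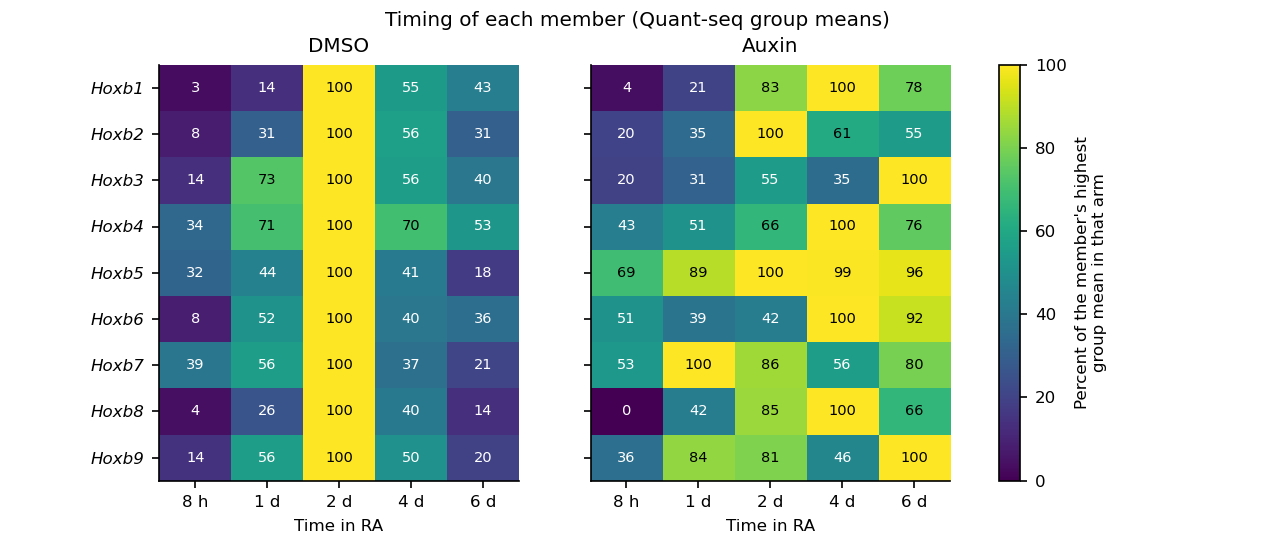
Group mean of each member as a percent of its highest group mean in the same arm, by time in RA, for DMSO (left) and auxin (right). In DMSO every member reaches 100 at day 2. In auxin the highest mean falls at day 1 for Hoxb7 and at day 2 for Hoxb2 and Hoxb5. It falls at day 4 for Hoxb1, Hoxb4, Hoxb6 and Hoxb8 and at day 6 for Hoxb3 and Hoxb9. The day 1 mean of Hoxb7 joins libraries at 5.04 and 17.4 CPM, and the Hoxb5 means of days 2 and 4 were 21.8 and 21.7.

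With auxin, the same 6 members were called higher than the DMSO 0 h libraries at 8 h, Hoxb1 to Hoxb5 and Hoxb7 (3.81% of genes were). At day 1 (14.4% of genes), day 2 (18.2%) and day 4 (22.8%) 8 members were called, and at day 6 all 9 were (23.2%). Hoxb6 was not called at days 1 and 2, nor Hoxb9 at day 4. The 0 h libraries are the control of both arms, so the arms' counts over 0 h are not independent.

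At 8 h of RA, no member was called different between auxin and DMSO, where 0.14% of genes were called lower and 0.0175% higher. DESeq2 called none either, and 2 members, Hoxb1 and Hoxb7, had an unadjusted p under 0.05 in edgeR. The intervals of the difference were narrower for Hoxb4 (log2 -0.88 to 0.13) and Hoxb5 (-0.81 to 0.34), and neither excludes a lower level in auxin. They were wide for Hoxb6 (-2.16 to 3.15) and Hoxb8, which had no read in auxin. Hoxb1 stood at 11.4 and 12.5 CPM in auxin, against 5.26 and 8.81 in DMSO (0.79 ± 0.29, edgeR adjusted p = 0.338). Hoxb7 went the other way, at 4.94 and 7 in auxin against 11.5 and 11.8 in DMSO (-0.95 ± 0.43, edgeR adjusted p = 0.421).

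At day 1, Hoxb1 was higher and Hoxb3 and Hoxb4 were lower in auxin. Hoxb1 stood at 64.9 and 71.1 in auxin, against 27.8 and 30.5 in DMSO, with no overlap (log2 fold change 1.22 ± 0.17, edgeR adjusted p = 3.05e-05). It was 1 of 9 members called higher, where 1.02% of genes were. Hoxb4 stood at 22.1 and 30.0 against 47.7 and 68.7 (-1.17 ± 0.23, edgeR adjusted p = 0.00183). Hoxb3 stood at 9.75 and 12.6 against 22.4 and 34.1 (-1.33 ± 0.34, edgeR adjusted p = 0.0160). They made 2 of 9 members called lower, where 1.38% of genes were. Both calls were lost without the first DMSO or the first auxin library of that day, which left 1 member called, and the call of Hoxb3 also without the second auxin library. The adjusted p was then at most 0.205 for Hoxb3 and 0.0665 for Hoxb4. Hoxb2 stood at 6.93 and 11.8 in auxin against 21.3 and 26.7 in DMSO (-1.36 ± 0.43, edgeR adjusted p = 0.0544), and was called in 5 of 12 alternatives, DESeq2 among them.

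Day 2, the time of the DMSO peak, showed the widest difference. In auxin 7 of the 9 members were called lower, where 1.88% of genes were, and none was called higher, where 2.93% of genes were. Of the 7 members that passed the filter in both arms, all but Hoxb6 and Hoxb8, 5 were called lower. Hoxb2 stood at 26.2 and 27.6 in auxin against 68.8 and 86.7 in DMSO (-1.53 ± 0.30, edgeR adjusted p = 0.000762). Hoxb4 stood at 31.4 and 35.6 against 76.3 and 88.5 (-1.30 ± 0.20, edgeR adjusted p = 6.2e-05). Hoxb5 stood at 20.1 and 23.6 against 48.8 and 62.0 (-1.34 ± 0.23, edgeR adjusted p = 0.000212). Hoxb9 stood at 15.2 and 17.8 against 40 and 52.4 (-1.49 ± 0.25, edgeR adjusted p = 0.00016). These 4 genes kept their call in each of the 12 alternatives computed for them.

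Hoxb6 (0.575 and 3.14 against 5.77 and 28.6), Hoxb7 (8.38 and 10.9 against 23.4 and 36.1) and Hoxb8 (2.62 and 4.02 against 9.35 and 14.9) were also called lower. Their log2 fold changes were -3.10, -1.63 and -1.87, with edgeR adjusted p of 0.0161, 0.002 and 0.0122. For Hoxb6 and Hoxb8, which passed the filter through DMSO alone, this direction was partly set by the filter. All 3 lost the call without the first auxin library of day 2, which left 4 members called, and Hoxb7 and Hoxb8 also without the second DMSO library. Hoxb6 lost it as well without the second auxin or the first DMSO library. DESeq2 called 5, without Hoxb6 and Hoxb8. Hoxb3 passed the adjusted p (0.0229) with a log2 fold change of -0.96 ± 0.28. Hoxb1 was the only member whose auxin libraries, at 271 and 273, lay above those of DMSO, at 209 and 213 (0.36 ± 0.11, edgeR adjusted p = 0.0286), a difference short of the limit. Both auxin libraries lay below both DMSO libraries for 8 of 9 members, and for 6 of the 7 that passed the filter in both arms, as they did for 26.2% of genes. The median log2 fold change over those 7 was that of Hoxb5, and it was 0.04 over all genes.

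At day 4 the calls between the arms were Hoxb1, Hoxb2 and Hoxb9. Hoxb1 stood at 321 and 338 CPM in auxin against 115 and 116 in DMSO (1.51 ± 0.11, edgeR adjusted p = 2.37e-10). It was 1 of 9 members called higher, where 4.66% of genes were. Hoxb2 stood at 16.3 and 16.5 against 40.4 and 47.1 (-1.41 ± 0.33, edgeR adjusted p = 0.00324). Hoxb9 stood at 7.65 and 11.2 against 23.1 and 23.6 (-1.31 ± 0.29, edgeR adjusted p = 0.00211), a call lost without the second auxin library of day 4 (adjusted p = 0.0547). These made 2 of 9 called lower, where 2.59% of genes were. Hoxb3 was called lower as well without the first auxin library of day 4 (-1.49, edgeR adjusted p = 0.0182), against -0.78 ± 0.32 with it. Both auxin libraries lay below both DMSO libraries for 6 of 9 members, as they did for 31% of genes, and so they did without a call for Hoxb3, Hoxb4, Hoxb7 and Hoxb8. The interval of the difference was -0.58 to 0.22 for Hoxb4 and -0.60 to 0.43 for Hoxb5, so that a loss as large as on day 2 lay outside it for both.

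At day 6 DMSO had 1 library and no test was made. Hoxb1 stood at 256 and 258 in auxin against 90.1, Hoxb3 at 34.7 and 36.8 against 15.3, Hoxb5 at 17.1 and 25.0 against 9.91 and Hoxb9 at 19.3 and 21.5 against 9.09. These 4 exceeded a log2 fold change of 1, as 10.6% of genes did. Hoxb4 was at 36.8 and 39.8 against 43.8. Hoxb2 was at 4.17 and 25.6 against 24.0, so its auxin libraries fell on both sides. Within auxin, Hoxb3 and Hoxb9 were called higher at day 6 than at day 4 (2 of 9 members, 2% of genes), with log2 fold changes of 1.51 ± 0.31 (edgeR adjusted p = 0.00243) and 1.11 ± 0.31 (edgeR adjusted p = 0.0214). Neither was called in a fit of these groups alone, none of the 9 was called without the second auxin library of day 4, and 1 was called without the second auxin library of day 6.

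**Figure D3:**
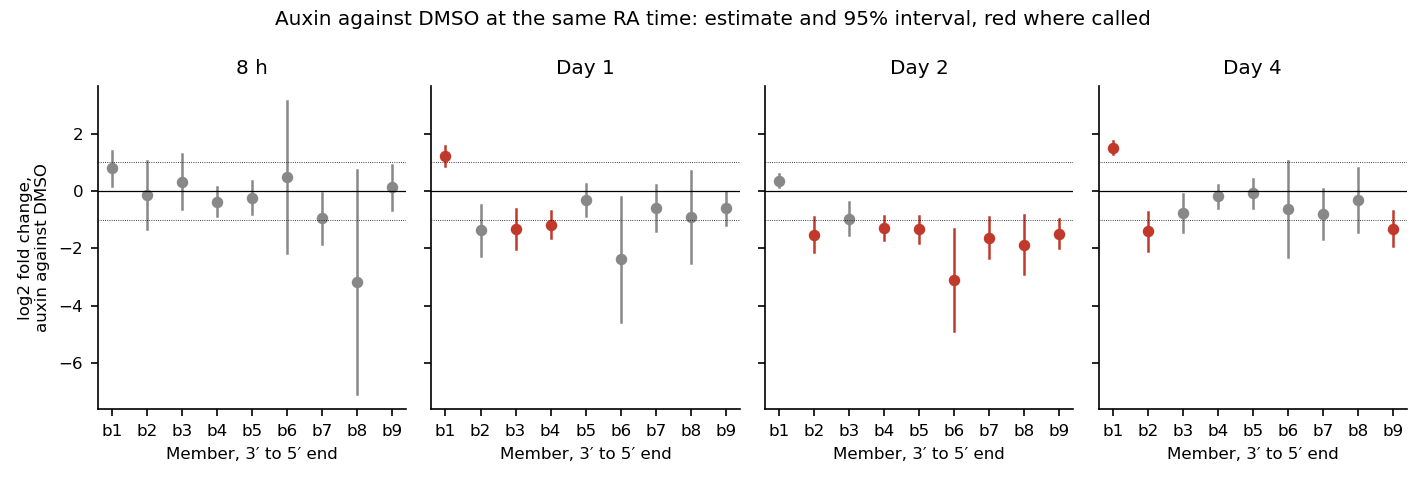
Log2 fold change of auxin against DMSO with its 95% interval (vertical axis), for Hoxb1 to Hoxb9 from left to right in 4 panels by time in RA; red marks calls, and dotted lines mark 1 and -1. Hoxb1 lies above 0 in all 4 panels, and Hoxb2 to Hoxb9 lie below 0 at days 1, 2 and 4.

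Whether the auxin effect changed with time was tested on the differences themselves. Between day 4 and 8 h it differed for none of the 9 members in edgeR or DESeq2 (1.96% of genes were called higher and 1.59% lower), and 1 member, Hoxb9, had an unadjusted p under 0.05 (-1.44 ± 0.49). A comparison of day 4 with day 2, added after the data were seen, called 2 of 9 members higher (0.359% of genes). They were Hoxb1 (1.15 ± 0.16, edgeR adjusted p = 8.56e-05) and Hoxb4 (1.12 ± 0.28, edgeR adjusted p = 0.0426). DESeq2 called 1 member, and 1 member was called when any 1 of the 8 libraries other than the second auxin library of day 4 was left out. The comparison of day 2 with 8 h, also added later, called Hoxb9 lower (-1.61 ± 0.46, edgeR adjusted p = 0.0461), 1 of 9 members where 1.02% of genes were. In edgeR 6 members, Hoxb9 among them, had an unadjusted p under 0.05, and DESeq2 called none. No member was called either without the second auxin or any DMSO library of 8 h, without any auxin library of day 2, or without the second DMSO library of day 2.

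Within each arm, the members were also compared between successive times. In DMSO, 6 members rose from 8 h to day 1 (9.29% of genes did) and 4 from day 1 to day 2 (5.05%), namely Hoxb1, Hoxb2, Hoxb5 and Hoxb8. Leaving out 1 library gave 4 to 7 and 3 to 6 calls, and DESeq2 made 5 and 3. Hoxb8 was among the first 6, from 0 and 2 reads at 8 h and 7 and 4 at day 1. In auxin, 3 members rose from 8 h to day 1 (7.93% of genes), Hoxb1, Hoxb8 and Hoxb9, and 2 from day 1 to day 2 (6.71%), Hoxb1 and Hoxb2. The Hoxb8 call in auxin set 3 and 2 reads at day 1 against none at 8 h, in a gene that passed the filter through DMSO alone. The auxin counts fell to 1 without the first auxin library of 8 h and of day 1, respectively. Whether these steps differed between the arms was not tested. None was called between days 2 and 4 in auxin by edgeR or DESeq2 (5.99% of genes rose and 2.86% fell), with 3 members at an unadjusted p under 0.05. Without the first auxin library of day 4, 1 member was called. Hoxb5 in auxin stood between 15.0 and 26.6 CPM in all 10 libraries from 8 h to day 6.

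The make-up of the cluster's transcripts differed between the arms. Hoxb1 took 36.6% to 38.6% of the reads of the 9 genes in the 4 DMSO libraries of days 2 and 4. It took 66.3% to 74.3% in the 4 auxin libraries, and the arms did not overlap. At 8 h Hoxb4 took the largest share in every library, 25.3% to 33.3%. The sum of the 9 genes was 569.2 and 572.4 CPM in DMSO and 399.6 and 411.4 in auxin at day 2. It was 298.5 and 316.1 in DMSO and 454.6 and 455.1 in auxin at day 4. Without Hoxb1 the sums at day 4 were 183.3 and 200.4 in DMSO and 116.8 and 134 in auxin. At day 6 the order was the reverse, with 116.1 in the 1 DMSO library and 136.2 and 155.9 in auxin.

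**Figure D4:**
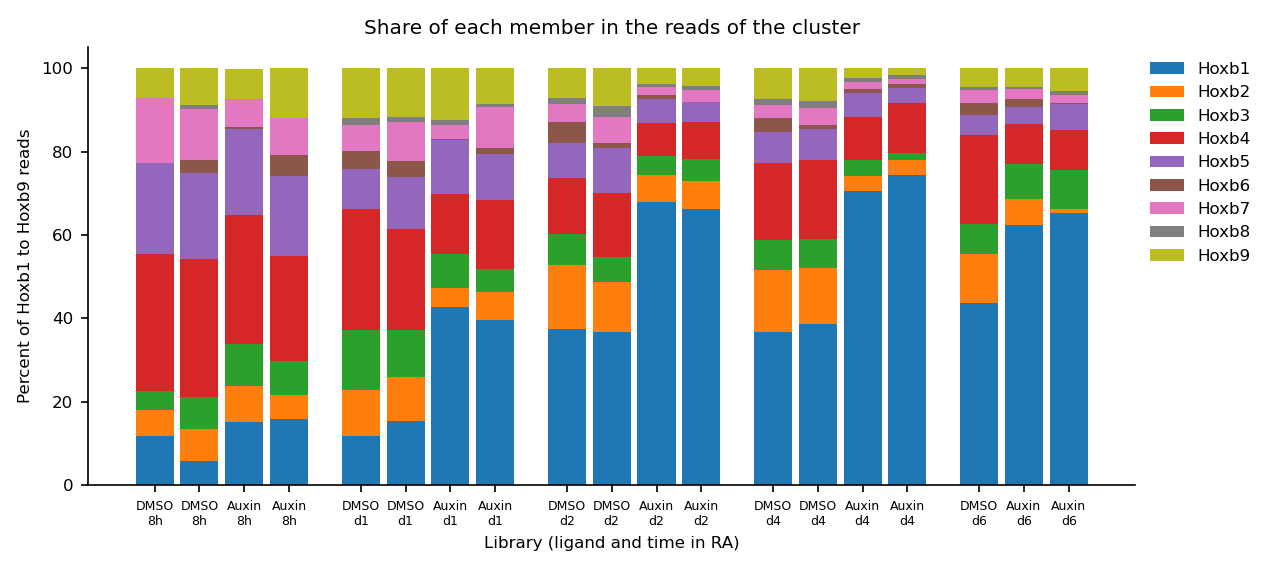
Percent of the reads of Hoxb1 to Hoxb9 that came from each gene (vertical axis, stacked to 100) in each Quant-seq library from 8 h to day 6, in pairs by arm. The lowest segment, Hoxb1, is 11.7% and 15.3% in DMSO but 39.7% and 42.6% in auxin at day 1.

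The lineage markers moved with the arms as well. At day 1 the 8 primitive endoderm markers summed to 80.7 and 84.3 CPM in auxin and 51.7 and 55.6 in DMSO, with Foxa2 and Lama1 called higher. At day 2, 3 of the 8 (Dab2, Gata4 and Sox7) were called lower in auxin and none higher, with sums of 382.8 and 421.2 CPM in auxin and 565.6 and 575.4 in DMSO. At day 4, 6 of 8 were called lower (979.1 to 993.3 against 2965.8 to 3007.7). The pluripotency markers summed to less in auxin than in DMSO at 8 h (6010.9 and 6145.9 against 7474.2 and 7812.2) and day 1 (5475.7 and 5520.3 against 7826.7 and 7940.1). Their sums were 3039.7 and 3119.7 against 4396.2 and 4480.9 at day 2 and 1982.1 and 2032.3 against 3388.8 and 3425.5 at day 4, with Dppa5a called lower at both. At day 6 they were 1700.7 and 1801.6 against 1751.1, while the primitive endoderm sums were 1063.0 and 1189.1 in auxin against 6447.6 in the DMSO library and the neural sums 398.8 and 460.7 against 256.9. Of the same list, Prdm14 was called higher at day 1 and Tdgf1 at day 4. The 12 neural markers summed to 158.9 and 160.0 in auxin and 91.4 and 117.5 in DMSO at day 1, and to 229.8 and 231.0 against 207.2 and 215.0 at day 2. None of the 6 tested was called by edgeR or DESeq2 at either time, and 2 and 1 of them had an unadjusted p under 0.05. At day 4 the neural sums were lower in auxin (376.0 and 411.6 against 467.1 and 475.0), with Sox1 called lower. At day 2 the 7 mesoderm markers summed to 9.95 and 14.4 in auxin and 23.4 and 32.7 in DMSO (Eomes called lower), and the 6 trophectoderm markers to 216.6 and 247.2 against 285.6 and 328.5 (Cdx2 called higher). The part of these cell populations in the Hoxb differences was not tested.

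The 16 tested genes of the Hoxa, Hoxc and Hoxd clusters were examined beside the members. At day 2, all 16 were called higher than at 0 h in DMSO (16.2% of genes were) and 15 in auxin (18.2%). Genes near silence at 0 h, such as Hoxc5 with 0 reads there, passed the filter through RA groups alone. Their rise was partly fixed by it. At that time 8 of the 16 were called lower in auxin (1.88% of genes were), among them Hoxa5, Hoxa9, Hoxc4 and Hoxc8. None was called higher (2.93% of genes were). Hoxa5, the Hoxa paralogue of Hoxb5, stood at 80.6 and 85 CPM in auxin and 482.5 and 527.7 in DMSO at day 2 (-2.61 ± 0.13, edgeR adjusted p = 2.8e-13). It was already lower at 8 h (-1.21 ± 0.17, edgeR adjusted p = 0.000228), when Hoxb5 was at -0.24 ± 0.28. Hoxc5 was also lower at day 2 (-2.04 ± 0.39, edgeR adjusted p = 0.000705). Hoxb13, the isolated gene beyond Hoxb9, was at 0 and 1.45 CPM at 0 h and at most at 11.5 CPM up to day 4. At day 6 it stood at 41.5 and 50.0 in auxin and 30.2 in DMSO.

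Outside the cluster, 10 flanking genes were tested. None was called between the arms at 8 h or at day 1, 2 or 4 by edgeR or DESeq2, with 1 to 4 genes per time at an unadjusted p under 0.05. The nearest gene with a test on the Hoxb1 side was Skap1, 96.3 kb away, at 6.75 and 7.21 CPM at day 2 in DMSO and 2.87 and 4.71 in auxin (-0.86 ± 0.56, edgeR adjusted p = 0.346). At day 4 Skap1 went the other way, at 0 and 1.75 in DMSO and 3.06 and 4.79 in auxin (2.06 ± 0.80, edgeR adjusted p = 0.0751). Its estimates were -0.07 ± 1.38 at 8 h and -0.17 ± 0.53 at day 1. The nearest on the Hoxb9 side was Calcoco2, 159.5 kb away, which rose with RA in both arms and stood at 337 and 339 in DMSO and 302 and 320 in auxin at day 2 (-0.12 ± 0.11, edgeR adjusted p = 0.523). Its estimate was -0.61 ± 0.13 at 8 h, -0.79 ± 0.12 at day 1 and 0.66 ± 0.11 at day 4 (edgeR adjusted p = 0.0207, 7.64e-05 and 9.57e-05), short of the limit each time.

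Genes that act on the cluster were counted in the same way. Of 16 tested genes of RA reception and metabolism, 7 were called higher at day 2 in DMSO and 9 in auxin, including the receptor Rarb, the binding protein Crabp2 and the RA-degrading enzyme Cyp26a1. Between the arms at day 2, 1 of the 16 was called higher, Rxrg, and none lower, while DESeq2 called none. Of 11 Hox cofactors and regulators, Cdx1 and Cdx2, which activate posterior Hox genes, were called higher in auxin at day 2 and none lower. Of 21 Polycomb and Trithorax genes none was called at day 2 by edgeR or DESeq2, and 4 had an unadjusted p under 0.05. The Hox cofactors Meis1, Meis2, Meis3 and Pbx3 were called higher than at 0 h in both arms at days 2 and 4.

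Among the 5 genes outside the cluster whose levels most resembled the mean of the 9 members over the 11 Quant-seq group means were Hoxa7 (Pearson r 0.953), Ypel5 (0.939) and Vezt (0.936). This was computed on log2(CPM + 1) and ranks genes measured in the same libraries. The member nearest to the mean of the 9 was Hoxb2 (0.969) and the farthest Hoxb9 (0.821).

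In the SLAM-seq libraries, without RA, the 2 lines with intact Kdm5 genes were again almost empty of Hoxb reads. In DPY30–mAID, Hoxb1, Hoxb2, Hoxb5 and Hoxb6 had no read in any of the 12 libraries, which allows up to 0.106 CPM over 28211464 reads. Hoxb3, Hoxb4, Hoxb7 and Hoxb8 had 1, 14, 4 and 3 reads in all. In RBBP5–FKBP, 6 of the 9 members, Hoxb1, Hoxb2, Hoxb3, Hoxb5, Hoxb6 and Hoxb8, had no read (up to 0.114 CPM). Hoxb4 had 4 reads and Hoxb7 had 6. Hoxb9 was detected in both lines. At 0 h it was at 4.33 CPM in DPY30–mAID (exact 95% interval 2.98 to 6.09) and 2.06 in RBBP5–FKBP (1.18 to 3.34), against 5.23 (3.39 to 7.73) in the Quant-seq 0 h libraries on the same scale.

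The dKO libraries were different. Hoxb4 had 62 and 31 reads at 0 h, which is 9.12 and 3.98 CPM, where the 3 DPY30–mAID libraries had 1 read between them. The log2 fold change was 5.30 ± 1.36 (edgeR adjusted p = 0.00759), and it was called higher, as 8.31% of genes were. Hoxb1, Hoxb3 and Hoxb4 passed the filter through the dKO libraries alone, so that a higher level there was partly fixed by the filter. The call was lost without the first dKO library (4.57, edgeR adjusted p = 0.196), and the fitted size depends on a near-empty control. Hoxb1 had 17 and 5 reads, and Hoxb3 and Hoxb5 had 20 and 17 reads over both libraries. The estimates were 5.56 ± 2.16 for Hoxb1 (edgeR adjusted p = 0.0673) and 5.40 ± 2.12 for Hoxb3 (edgeR adjusted p = 0.0702). Hoxb9 was at 4.73 CPM (3.68 to 5.98), with a log2 fold change of -0.03 ± 0.85 against DPY30–mAID. RBBP5–FKBP showed no call against DPY30–mAID in edgeR or DESeq2 (2.68% of genes higher and 3.51% lower), and no unadjusted p under 0.05.

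Over the 12 dKO libraries, Hoxb1 was seen in all at 5 to 22 reads, Hoxb4 at 25 to 62 and Hoxb5 at 4 to 20, while Hoxb6 had 1 read in total. The dKO libraries held 5931269 to 7792404 reads, against 2013350 to 2806821 for DPY30–mAID. Reads of the dKO line spanned a mean of 11.2 T positions, those of the other SLAM-seq lines 18.7 and those of Quant-seq 11.6, so line, depth and read length cannot be told apart. Whether reads carried over from other libraries added to the dKO counts was not tested. Reads with T>C conversions, which mark RNA made during labelling, were 12 of the 914 dKO reads of Hoxb1 to Hoxb8. This is 1.31% (exact 95% interval 0.68% to 2.28%), against 3.92% over all genes and 7.12% (4.79% to 10.1%) for Hoxb9 in the same libraries.

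**Figure D5:**
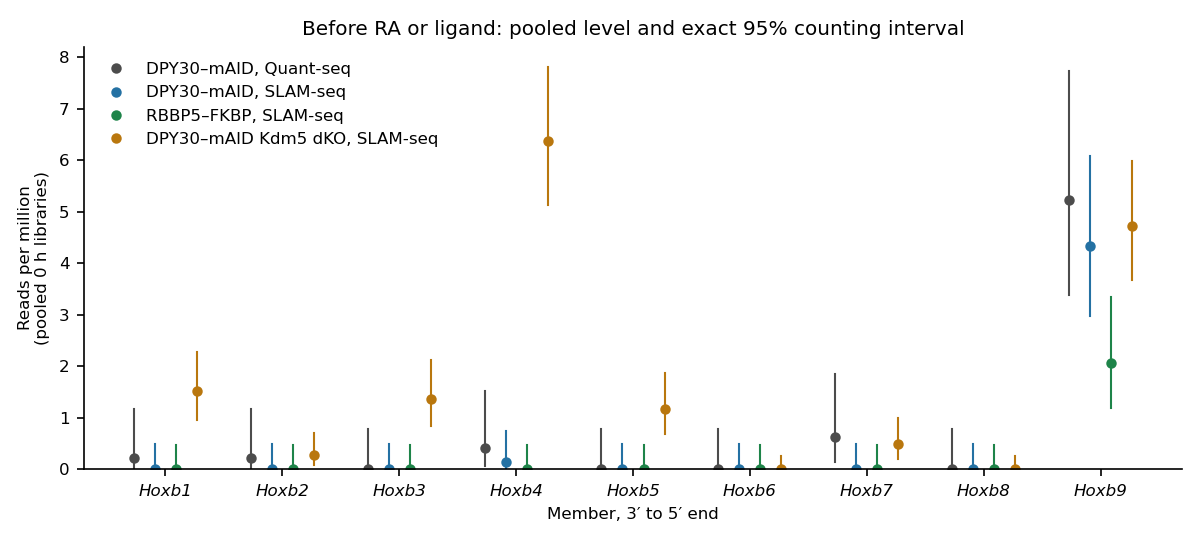
CPM of each member in the pooled 0 h libraries (vertical axis), with exact 95% counting intervals, for DPY30–mAID by Quant-seq and for the 3 lines by SLAM-seq. Hoxb9 lies between 2.06 and 5.23 in all 4 sets, and Hoxb4 reaches 6.37 in the dKO set alone.

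After ligand, no member was called in any SLAM-seq line. In DPY30–mAID, Hoxb9 was the 1 member with enough reads to test, and its log2 fold change was 0.07 ± 0.76 at 24 h of auxin, when 6.16% of genes were called higher and 7.05% lower. At 8 h it was 0.20 ± 0.75 (2.21% higher and 1.96% lower) and at 2 h -0.34 ± 0.78 (0% of genes in either direction). In the dKO line 5 members were tested, and their estimates at 48 h lay between -0.60 (Hoxb4) and 0.47 (Hoxb1), when 1.64% of genes were called higher and 0.781% lower (0.878% and 0.579% at 24 h, 0% and 0.00878% at 8 h and 0% at 2 and 4 h). DESeq2 made no call on the members and none had an unadjusted p under 0.05 in these fits. Without the second dKO library of 0 h, Hoxb4 was called lower at 24 and 48 h, which made 2 calls. No member of RBBP5–FKBP reached the filter. The T>C reads of the members passed the filter in no line.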

How the data were processed

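Per the labels and the file headers, the authors trimmed the reads and deposited, for each library, a SlamDunk (0.3.4) table of read counts over 46420 3′ UTR intervals on mm10. The submitters' processing notes also name HISAT2 2.2.1 and featureCounts for Quant-seq. The deposited counts of all reads, of T>C reads and of multimapped reads were used. The authors' CPM column was not used, since it can be computed from the counts. Intervals were summed to 20177 genes, and all rows named a gene.

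A gene was tested, where any group averaged 10 reads or more, with the edgeR (4.0.16) quasi-likelihood test on TMM-normalised counts, in 1 fit per experiment or SLAM-seq line, and p-values were adjusted by Benjamini-Hochberg over all tested genes. Calls needed an adjusted p under 0.05 together with a change of more than 1 on the log2 scale. The standard errors are approximate, computed here as the absolute log2 fold change over the square root of that test's F statistic. The 95% intervals of log2 fold changes rest on them. The fits were run on simulated counts with changes planted in randomly drawn genes. That run did not copy the near-empty 0 h groups of the members, so it cannot speak for their calls. Alternatives were DESeq2 (1.42.0), other scalings, filters at 50 reads or none, a replicate block, fits of the compared groups, counts without multimapped reads and leaving out each library. Ratios and shares carry exact 95% (Clopper-Pearson) intervals, and an empty group was given a floor of 3 reads over its libraries. Named genes were all 9 members, the 5 most alike genes, the paralogues of the member with the largest fitted change at 8 h, and the nearest flanking genes, of which some are not reported here. Members and gene lists were chosen with earlier results of these data known.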

Additional observations from a re-analysis of the deposited data

Results flagged for a closer look

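The auxin effect on 3 members differed between times in comparisons added after the data were seen, and each is given here as a value only. Between day 4 and day 2 it rose by a log2 difference of 1.15 for Hoxb1, whose libraries lay above DMSO at both times, and by 1.12 for Hoxb4, which was called lower at day 2 and not at day 4. Between day 2 and 8 h it was lower by a log2 difference of -1.61 for Hoxb9. DESeq2 called 1 of the first pair and did not call Hoxb9. No group had the 4 libraries needed to look for a library far from the others.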

How the results depend on the processing

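Replicate numbers did not pair the Quant-seq libraries (mean correlation of same-numbered deviations 0.00108, from -0.1892 to 0.2819). With a replicate block the calls between the arms were 4 at day 1, 7 at day 2 and 3 at day 4, and the auxin effect differed for 0 members between day 2 and 8 h (1 without the block) and for 1 between day 4 and day 2 (2 without it).

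Between the arms at day 1, 3 members were called, and 5 with no filter or with the compared groups only. In DMSO from day 2 to day 4, 3 were called, and 5 with no filter. In auxin from day 4 to day 6, 2 were called, 1 by DESeq2 and 0 with the compared groups only. For the difference between day 2 and 8 h the 1 call became 0 in DESeq2 and without multimapped reads, and 2 with no filter or the compared groups only. Between day 4 and day 2 the 2 calls became 1 in DESeq2. Among SLAM-seq results, the dKO T>C reads gave 1 call with no filter, and the call between lines at 0 h became 0 with the filter at 50 reads. The cause of these changes was not tested. No value changed its direction after a call, and the counts over 0 h stayed within 1.5 times in every alternative.

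Leaving out 1 library gave 1 to 3 calls between the arms at day 1 and 4 to 6 at day 2. In auxin it gave 1 to 2 from 8 h to day 1, 1 to 2 from day 1 to day 2, 0 to 1 from day 2 to day 4 and 0 to 3 from day 4 to day 6. For the auxin effect it gave 0 to 1 between day 2 and 8 h and 1 to 2 between day 4 and day 2. After ligand in the dKO line it gave 0 to 2, and between lines at 0 h 0 to 1. A lone library left in a group was assumed to vary like the others. With 2 libraries a group and few reads, Hoxb6 and Hoxb8 were the least precise members.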
